A study of Arabidopsis thaliana with 8 samples.

Results

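On an expression array of wild-type Arabidopsis thaliana, 98 of 3439 probes gave an abundant signal that was much lower in plants kept at high CO2. A probe was taken when its deposited intensity averaged at least 0.68 over all 8 arrays, when the mean of the high-CO2 arrays divided by the mean of the normal-CO2 arrays was at most 0.5, and when the highest high-CO2 array lay below the lowest normal-CO2 array. The same values that chose these probes are described below, so their difference between the groups carries no test. The 98 probes were 12.4% of the 788 probes of that mean intensity or more.

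The high-CO2 group held 4 arrays from plants of the Columbia 0 ecotype that spent their last 10 days at 1% CO2 by volume. The normal-CO2 group held 4 arrays from plants of the same ecotype at normal CO2, titled day 0. All plants were wild type, and the labels name no other agent. They give neither the organ nor the age at harvest. Since nothing in them says that replicates were separate cultures, p-values below reflect array-to-array spread, possibly technical. CO2, age and time of harvest cannot be told apart in this design.

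In leaves, CO2 is fixed by Rubisco in the Calvin cycle, and oxygen competes with it at the same enzyme, which starts photorespiration. Air rich in CO2 suppresses that side reaction and raises the supply of sugars, which plants turn into sucrose for export or store as starch. Plants grown in this way are known to adjust transcripts of photosynthesis and of carbohydrate metabolism.

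The arrays gave no counts, and their number limits the precision of each value. Summed intensity was 3355 to 3498 per high-CO2 array and 3295 to 3359 per normal-CO2 array. The median of the values above 0 was 0.255 to 0.323 on high-CO2 arrays and 0.270 to 0.298 on normal-CO2 arrays, so overall brightness overlapped between the groups. No table value exceeds 100, and none of the 98 probes stood at that ceiling or at 0 on any array. Across all 3157 probes that could be tested, 749 (23.7%) were lower at high CO2 at an adjusted p of 0.05 (limma, Benjamini-Hochberg), and among those of mean 0.68 or more it was 35.8%. The median log2 change over all tested probes was -0.14. With that median set to 0, 591 were lower and 725 higher, against 749 lower and 614 higher as tested. All 98 probes were among the lower ones in either case, a count that the choice of the probes produces.

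Together the 98 probes gave much less signal at high CO2. They took 5.97%, 6.03%, 5.90% and 5.89% of the summed intensity on high-CO2 replicates 1 to 4, against 16.5%, 17.2%, 17.0% and 16.4% on normal-CO2 replicates 1 to 4. The summed intensity of the probes was 203 ± 2.56 at high CO2 and 557 ± 12.5 at normal CO2 (SD, n = 4 each), a ratio of 0.364. Without the 3 brightest it was 0.367, and the rule holds it to at most 0.5 for any selection of the 98. In whole tissue, a lower share of cells that hold a transcript and less of it per cell cannot be told apart.

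The ratio of high over normal CO2 ran from 0.215 to 0.496 with a median of 0.395, against a median of 0.952 over the 788 abundant probes. It was at most 0.3 in 12 probes, above 0.3 and at most 0.4 in 38, and above 0.4 in 48. The lowest normal-CO2 array was at least 2 times the highest high-CO2 array in 39 of the 98, and the median of that quotient was 1.85. The rule keeps it above 1 in every case. Their levels spanned a wide range, from 0.258 to 23.0 in the high-CO2 mean and from 0.940 to 62.3 in the normal-CO2 mean.

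Of the 100 brightest probes of the whole array, 29 belonged to the 98 at normal CO2 and 9 at high CO2. All 9 were among the 29. The rule requires each of the 98 to be lower at high CO2, so the smaller number there is largely produced by the choice. When the 98 were ranked into 4 level classes, the median ratio was 0.355 in the brightest (normal-CO2 means of 5.43 to 62.3), 0.343 and 0.422 in the next, and 0.442 in the dimmest (0.940 to 1.27). Among the dimmest, the limit on mean intensity keeps out probes with the lowest ratios. Part of this order therefore follows from the rule.

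The brightest of the 98 was probe 3505, for which the annotation table names no gene. Its intensity was 21.0, 27.8, 22.8 and 20.4 on the high-CO2 arrays, against 49.7, 73.3, 64.4 and 61.9 on the normal-CO2 arrays. It averaged 23.0 ± 3.35 at high CO2 and 62.3 ± 9.76 at normal CO2 (SD, n = 4 each), 2.71-fold lower, and stood at rank 19 of all probes at high CO2 and at rank 7 at normal CO2. Probe 3229, also without a gene, averaged 17.0 ± 1.01 at high CO2 and 44.2 ± 2.07 at normal CO2 (SD, n = 4 each). Probe 3205 was the most even of these at high CO2, with 12.4, 12.5, 12.6 and 12.4 there and 44.1, 40.4, 40.7 and 37.8 at normal CO2. Its means were 3.26-fold apart. Probe 2905 was split at high CO2, at 10.1 and 10.4 on replicates 1 and 2 and at 7.19 and 7.48 on replicates 3 and 4, against 23.8, 29.8, 24.3 and 22.4 on the normal-CO2 arrays. The other 4 of the 8 brightest had high-CO2 means of 6.81 to 8.29 and normal-CO2 means of 19.7 to 23.1.

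The lowest ratio belonged to probe 3441, which has no gene in the table. It gave 0.444, 0.522, 0.613 and 0.700 on the high-CO2 arrays, against 2.42, 2.75, 2.64 and 2.79 on the normal-CO2 arrays. The means were 0.570 ± 0.111 at high CO2 and 2.65 ± 0.165 at normal CO2 (SD, n = 4 each), 4.65-fold lower at high CO2. Probe 4187 came next at 4.34-fold lower, but its high-CO2 arrays were uneven, at 0.144, 0.0421, 0.438 and 0.409, while its normal-CO2 arrays held between 1.07 and 1.199. The ratio of that probe was 0.0868 on replicates 1 and 2 and 0.361 on replicates 3 and 4. The other 6 of the 8 lowest ratios lay between 0.236 and 0.279. Of these 6, probes 2917, 3211 and 3493 have no gene in the table, 2397 and 2920 match several, and 1 matches the locus AT2G46630 alone.

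A gene could be given to only a few of the 98. The annotation table pairs 13 of them with 1 gene and 15 with several (2 to 3 genes, none of which is named here), and it lists no gene for the other 70. The share with 1 gene was 13.3%, against 16.1% of the 788 abundant probes, and the share with none was 71.4%, against 61.9%. Among the 20 brightest of the 98, 17 had no gene. The probes with 1 gene had ratios of 0.236 to 0.470 with a median of 0.388, those with several a median of 0.415, and those with none a median of 0.395. Each of the 13 is described below, with a role for ATSPS4F, LPA19, CUTA and AT-HF and only the listed name for DRT101.

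ATSPS4F (AT4G10120) encodes a sucrose-phosphate synthase, the enzyme that makes the phosphorylated precursor of sucrose. Its probe gave 0.654, 0.893, 1.45 and 1.34 on the high-CO2 arrays, against 2.03, 1.79, 2.85 and 2.61 on the normal-CO2 arrays. Replicates 3 and 4 were the higher in each group, and the groups did not overlap. The means were 1.08 ± 0.374 at high CO2 and 2.32 ± 0.492 at normal CO2 (SD, n = 4 each), 2.14-fold lower.

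LPA19 (AT1G05385) encodes a chloroplast Psb27 protein needed to assemble photosystem II, the complex that splits water. Its intensity was 0.359, 0.487, 0.617 and 0.570 on the high-CO2 arrays, against 1.18, 1.14, 1.13 and 1.15 on the normal-CO2 arrays. The normal-CO2 arrays were nearly level, and the high-CO2 arrays were higher on replicates 3 and 4. It was 2.26-fold lower at high CO2 by the means.

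CUTA (AT2G33740) encodes a chloroplast relative of the bacterial copper-tolerance protein CutA, and had the brightest probe of the 5 genes that carry a name. Its probe gave 5.04, 4.47, 4.53 and 4.53 at high CO2, against 14.4, 13.6, 14.2 and 13.3 at normal CO2. The means of 4.64 ± 0.266 at high CO2 and 13.9 ± 0.505 at normal CO2 (SD, n = 4 each) were 2.99-fold apart.

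AT-HF (AT4G26900) encodes an enzyme of histidine synthesis. Its probe gave 0.714, 0.635, 0.670 and 0.266 on the high-CO2 arrays, against 1.45, 1.55, 0.963 and 0.911 on the normal-CO2 arrays. The gap between the groups was narrow here, from 0.714 on the highest high-CO2 array to 0.911 on the lowest normal-CO2 array. DRT101 (AT5G18070), which the gene table also lists as DNA-damage repair/toleration 101, averaged 0.716 ± 0.100 at high CO2 and 1.63 ± 0.127 at normal CO2 (SD, n = 4 each).

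The other 8 of the 13 carry only a locus number. The brightest of them was AT1G62250, at 7.23, 6.72, 7.35 and 7.19 on the high-CO2 arrays, against 23.7, 20.8, 24.7 and 23.3 on the normal-CO2 arrays, 3.24-fold lower. AT2G46630 had the lowest ratio of the 13, with 0.489, 0.520, 0.891 and 0.708 at high CO2, against 2.57, 2.39, 3.10 and 2.99 at normal CO2, 4.24-fold lower. AT1G02020 was lower on replicates 3 and 4 of the high-CO2 group (0.227 and 0.230) than on replicates 1 and 2 (0.509 and 0.430), and its normal-CO2 arrays lay at 1.02 to 1.35. AT1G79220 was level within groups, at 0.635 ± 0.0123 at high CO2 and 1.35 ± 0.0940 at normal CO2 (SD, n = 4 each). The remaining 4 loci, AT4G27390, AT2G19280, AT4G22370 and AT3G12000, had ratios of 0.325, 0.319, 0.422 and 0.388 in that order.

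None of the 98 probes matched a gene of 6 lists for photorespiration, the Calvin cycle, the light-harvesting complexes, photosystems I and II and starch. These lists held 75 loci, of which the array's annotation reached few: 5 probes pair with 1 gene of a list and 4 with several genes. Of the 5, 1 was lower at high CO2 and none higher at an adjusted p of 0.05 (limma), and no photorespiration gene was paired with a probe. SBPASE, the sedoheptulose-bisphosphatase that helps renew the CO2 acceptor, averaged 0.574 ± 0.136 at high CO2 and 0.837 ± 0.0955 at normal CO2 (SD, n = 4 each), a log2 change of -0.56 ± 0.16 (SE; limma, adjusted p = 0.016). Its groups overlapped (0.401 to 0.718 at high CO2, against 0.705 to 0.918 at normal CO2), and with the median change of all probes set to 0 its adjusted p was 0.059 (limma). PSBW, a small subunit of photosystem II, averaged 34.8 ± 2.09 at high CO2 and 22.9 ± 7.47 at normal CO2 (SD, n = 4 each; limma, adjusted p = 0.26). That call depended on normal-CO2 replicate 2, which stood at 34.1, against 18.6 to 19.8 on the other normal-CO2 arrays. Without that array PSBW was higher at high CO2 by 0.69 on the log2 scale (limma, adjusted p = 0.00091). The array is singled out here for its outlying value, so this p does not show that PSBW differed. In mean over all arrays, PSBW stood at rank 16 of 3439 and PSAN of photosystem I at rank 92. PRK of the Calvin cycle stood at rank 261, PSBY of photosystem II at 321 and SBPASE at 771. Of 6 marker loci for leaf and seed storage, none had a probe paired with it alone, so the organ could not be read from them.

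The limits of the rule cut through a continuous range. Just inside the ratio of 0.5 were probes 939 at 0.496, 3517 at 0.495, 1 at 0.493 and 3177 at 0.491. Just outside it, among abundant probes without overlap, were probes 4021 at 0.5002, 2625 at 0.501, 3261 at 0.503 and the probe of AT3G09050 at 0.505. At the limit of mean intensity, probe 3206 (0.685) and AT3G12000 (0.687) were inside, and probe 3157 (0.671) and AT2G11270 (0.665) outside. A further 314 probes below that mean met the other 2 conditions, and 156 abundant probes without overlap had higher ratios. The third condition removed none: no abundant probe with a ratio of 0.5 or less had overlapping groups. Of the abundant probes, 32.2% were lower without overlap.

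To read the difference on arrays that had no part in the choice, the rule was applied to replicates 1 and 2 of each group alone and the probes were then read on replicates 3 and 4, and the reverse. The pairs were formed so because arrays 1 and 2 lay close to each other, and so did arrays 3 and 4. Over the 98 probes the median absolute difference was 0.17 log2 units between high-CO2 arrays 1 and 2, 0.16 between 3 and 4 and 0.26 to 0.34 across these pairs. Between normal-CO2 arrays it was 0.11 and 0.098 within the pairs and 0.14 to 0.20 across. A high-CO2 array differed from a normal-CO2 array by 1.21 to 1.49. The labels name no such pairs, and whether they are independent of each other was not tested.

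Replicates 1 and 2 chose 119 probes, 88 of them among the 98, whose rule used these arrays as well. Read on replicates 3 and 4, 109 of the 119 were lower at an adjusted p of 0.05 and none was higher (limma, 2 arrays against 2, adjusted over 3030 probes). By the same test, 38.8% of all probes of that level and 22.8% of all tested probes were lower. The last share moved widely with single arrays. Leaving out 1 array leaves 1 in its group, which the fit assumes to vary like the 2 of the other group. With all 4 arrays 692 probes were called lower, without high-CO2 replicate 3 or 4 it was 1084 or 1092, and without normal-CO2 replicate 3 or 4 it was 343 or 332. Among the 119 it was 105 to 112 in these fits. Of the 119, 112 had no overlap on the arrays read (41.7% of the probes of that level had none and were lower). The full rule on ratio and overlap was met again by 66 of the 119 (55.5%), against a background of 11.3%. Their median ratio was 0.382 on the arrays that chose them and 0.478 on the others, and in 4 probes the ratio was 1 or more on the others. The 643 other probes of that level had a median ratio of 1.16 on replicates 3 and 4.

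The reverse choice gave 90 probes, 71 of them among the 98. On replicates 1 and 2, 85 of the 90 were lower and none higher (limma, adjusted over 3069 probes), where 33.9% of the probes of that level and 18.1% of all tested probes were lower. Of all probes, 554 were called lower with all 4 arrays and 289 or 286 without normal-CO2 replicate 1 or 2, while 78 to 81 of the 90 were called when any 1 array was left out. Without overlap were 89 of the 90 (background 48.6%), and 71 of the 90 (78.9%) met the full rule again (background 15.8%). Their median ratio was 0.405 on the arrays that chose them and 0.375 on the others, against 1.00 for the 716 other probes of that level on replicates 1 and 2. Chosen by both pairs were 63 probes, and all 63 belonged to the 98. Of the 98, 25 were chosen by replicates 1 and 2 only, 8 by replicates 3 and 4 only and 2 by neither. A probe that meets the limits on mean and ratio in both pairs also meets them on all arrays. These overlaps with the 98 are therefore largely fixed by the rule.

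Of the probes with 1 gene, 20 were chosen by replicates 1 and 2 and 9 by replicates 3 and 4. ATSPS4F, LPA19, DRT101, CUTA and AT-HF are named from these as probes that the rule also took on all arrays. That rule used the arrays read here as well, so the p-values of these named genes are not independent of the choice. On replicates 3 and 4, ATSPS4F gave 1.45 and 1.34 at high CO2, against 2.85 and 2.61 at normal CO2, a log2 change of -1.18 ± 0.11 (SE; limma, adjusted p = 0.0005). LPA19 gave 0.617 and 0.570 at high CO2, against 1.13 and 1.15 at normal CO2, a log2 change of -1.08 (limma, adjusted p = 0.0014). DRT101 gave 0.754 and 0.841 at high CO2, against 1.63 and 1.45 at normal CO2, a log2 change of -1.14 (limma, adjusted p = 0.00102). The ratios of ATSPS4F, LPA19 and DRT101 on these arrays were 0.511, 0.520 and 0.517, so they did not meet the full rule again. CUTA was chosen by both pairs. It had a log2 change of -1.79 (SE 0.079, limma, adjusted p = 7.14e-05) on replicates 3 and 4 and of -1.58 (SE 0.089, limma, adjusted p = 0.00023) on replicates 1 and 2. AT-HF missed the threshold on replicates 3 and 4 (log2 change -1.31 ± 0.43 SE; limma, adjusted p = 0.0502), and passed on replicates 1 and 2 at -1.10 ± 0.13 (SE; limma, adjusted p = 0.0027). Besides AT-HF, AT3G50180 and AT5G19750 also missed it on replicates 3 and 4, with ratios of 0.878 and 0.883 there. With the arrays scaled to one median instead, AT-HF (adjusted p = 0.029) and AT3G50180 (adjusted p = 0.046) passed (limma). With high-CO2 replicate 3 or 4 left out, so that 1 array stood for that group, the log2 change of AT-HF was -2.04 or -0.61. All 9 chosen by replicates 3 and 4 passed on replicates 1 and 2, but AT4G22370 (adjusted p = 0.012, limma) and AT2G19280 (adjusted p = 0.0074, limma) did not without high-CO2 replicate 2, at adjusted p of 0.063 each, nor did AT4G22370 without normal-CO2 replicate 2 (0.054).

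In proportion to the level, spread of the 98 probes was larger at high CO2, the group in which the rule makes them dimmer. The median SD of the 98 probes was 17.5% of the mean at high CO2 and 8.92% at normal CO2, and it was the larger at high CO2 in 73 of them. Over the 788 abundant probes the medians were 14.8% at high CO2 and 11.8% at normal CO2, and 461 had the larger at high CO2. Abundant probes raised at high CO2 (ratio of at least 2 and no overlap, 123 probes) went the other way. Their medians were 11.8% at high CO2 and 19.3% at normal CO2, and 41 had the larger at high CO2. In absolute terms the SD was larger at high CO2 in 29 of the 98 and in 463 of the 788. The requirement of no overlap limits how wide the groups can be, so these spreads describe the chosen probes.

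Part of the spread followed the array pairs. At high CO2, 67 of the 98 probes were higher on replicates 3 and 4 than on 1 and 2, with a median log2 difference of 0.13, and 44 had both of replicates 3 and 4 above both of 1 and 2. Over the 788 abundant probes the median was 0.12 and 45.2% had that order, so the high-CO2 arrays 3 and 4 were brighter among abundant probes in general. At normal CO2 the median difference was -0.015 in the 98 probes and -0.0044 in the 788. Accordingly, the median ratio of the 98 was 0.363 on replicates 1 and 2 and 0.429 on replicates 3 and 4, and that of the 788 was 0.909 and 1.02.

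The probe numbers of the 98 were unevenly spread. Of them 41 had a number that leaves 1 after division by 6, which is 41.8% of the 98, against 23.1% of the 788 abundant probes and 17.2% of all probes. Among the 25 with a normal-CO2 mean of at least 5, 20 had such a number. Within the abundant probes, 22.5% of those with remainder 1 belonged to the 98, against 2.58% of those with remainder 5. Abundant probes raised at high CO2 by the mirrored rule (ratio of at least 2 and no overlap, 123 probes) were spread otherwise: 13 of the 26 abundant probes with remainder 0 belonged to them, and 7.14% of those with remainder 1. The median ratio over all abundant probes was 0.837 at remainder 1 and 2.09 at remainder 0.

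Lowered probes also lay at regular distances from each other. Of the 98, 29 had another of them exactly 6 numbers away, against 6.23% of the other abundant probes with one of the 98 at that distance, and 22 had one 12 numbers away, against 4.93%. At a distance of 1 it was 5, against 5.51%. At the much larger distances that were also counted, it was 28 and 20 of the 98, against 5.65% each time. Of the 123 raised probes, 1.63% had another raised probe 6 numbers away and 13.8% had one 12 numbers away. Apart from 1, all distances counted are multiples of 6, and probes so far apart share a remainder. These counts are therefore not separate from the uneven remainders above. Probes 2899 to 2923 formed a run of 5 at steps of 6, with normal-CO2 means of 3.48 to 25.1 and ratios of 0.278 to 0.457, and probes 327 to 345 a run of 4 with ratios of 0.309 to 0.416. The tables do not tie numbers to positions on the array or to source plates, and the part of position in the difference was not tested. With all numbers of remainder 1 left out, 57 of the 98 remained, a count that leaving them out fixes. Of the probes chosen on replicates 1 and 2, 74 had another remainder, and 65 of these were lower on replicates 3 and 4, against 35.7% of the probes of that level with another remainder (limma, adjusted p of 0.05 over all tested probes). In the reverse choice it was 48 of 52, against 30%.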

How the data were processed

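The authors deposited 1 table with a linear intensity for 3439 numbered probes on each of 8 arrays. Per the labels, the samples are total RNA; the sources used here do not state the scaling or background removal behind the deposited intensities, or what a 0 means. Groups and replicate numbers come from the sample titles.

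Probes were paired with genes through the platform annotation distributed with GEO, which can be old. It lists 1562 probes here, 692 with 1 gene and 870 with several; 1877 have none. Gene IDs were updated through a RefSeq gene table (TAIR10.1), which held 690 of the 692. No sequences of members were used here.

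Members were chosen on intensities as deposited. For the tests, intensities were taken to log2 with 0 as missing and quantile-normalized. Probes with values above 0 on 3 or more arrays in both groups (all 4 arrays when 2 were read against 2) were fitted with limma 3.58.1 in R 4.3.3 (lmFit, eBayes with trend, two-sided), with Benjamini-Hochberg adjustment over all tested probes. The fits were tested on data simulated with independent arrays, so that check does not cover arrays that resemble each other in pairs.

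The probes, gene lists and tests were chosen with earlier results of these data known. Named were the 8 brightest members, the 8 lowest ratios, 4 probes on either side of the ratio limit and list genes; members with 1 gene were added after their values were seen. Replicate numbers were not used to pair the arrays in the main fits. Same-numbered deviations correlated at 0.0031 to 0.099, though 3 of 4 high-CO2 arrays had their best match in the normal-CO2 array of their own number. Alternatives were other scalings, a pseudocount of 0.036, filters, blocks, leaving out each array and, for each probe, an exact permutation test.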

Additional observations from a re-analysis of the deposited data

Results flagged for a closer look

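In 3 of 82 checks of 4 arrays, 1 array stood apart from the remaining 3 in its group by Dixon's criterion, which chance meets in about 1 of 20 groups (share 0.0366 here). CUTA stood at 5.04 on high-CO2 replicate 1, against 4.47 to 4.53 on the other high-CO2 arrays. AT3G12000 stood at 0.882 on normal-CO2 replicate 4, against 1.02 to 1.04 on the others. PSBW, a gene of the fixed lists and no member of the 98, stood at 34.1 on normal-CO2 replicate 2, against 18.6 to 19.8 on the others.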

How the results depend on the processing

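With other scalings, 0 as missing, geometric means, the ceiling or 1 array left out, the rule took 89 to 112 probes (98 as described), 86 or more of them among the 98, and 71 of the 98 met it in all 14 of these settings. It took 50 at a ratio of 0.4 or less, 68 at a mean of 1 or more, and 89 to 109 with 1 array left out. The count of lower probes over the whole array (749) was 742 with the replicate block and 566 with array pairs as a random block. With 1 array left out it was 624 to 715. By the exact permutation test it was 0, with 760 lower at an unadjusted p under 0.05. With 4 arrays against 4, no p of that permutation test can fall below 0.029, which became 0.067 after adjustment. The number of arrays therefore limits what that test can call. Of the 119 probes chosen on replicates 1 and 2, 101 to 112 passed on replicates 3 and 4 over all settings, 112 of them with the replicate block (105 to 112 with 1 array left out); of the 90 chosen in reverse it was 78 to 88, 84 with the replicate block (78 to 81). The full rule was met again by 63 to 90 probes over the scalings (66 and 71 as deposited), and by 65 to 73 and 69 to 74 with 1 array left out. Left out after seeing the data, probe numbers of remainder 1 leave 57, 65 and 48 probes in these counts. That the counts fall is by construction, while the 65 and 48 are probes called lower on the arrays read (limma). For 31 named members no ratio changed sign in 12 settings, which the lack of overlap required of them largely fixes. Of 372 values, 6 moved by over 1 SD, all under quantile normalization. For PRK of the fixed lists, with a log2 change of 0.03, the value ran from -0.071 to 0.11 with 1 array left out, and its sign turned without high-CO2 replicate 1 (-0.0046) or 2 (-0.039) and without normal-CO2 replicate 1 (-0.071); it passed in none (limma), and the cause was not tested. The sources used here do not state signal over background.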
